A study of Mus musculus with 6 samples.

Results

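The T-cell receptor V gene segments are the 144 genes, of 54532 in the deposited table, whose biotype is TR_V_gene. By the prefix of the gene name, 108 belonged to the alpha locus (Trav), 22 to the beta locus (Trbv), 5 to the delta locus (Trdv) and 6 to the gamma locus (Tcrg-V). Trgv2, described in the table as a gamma V gene, was counted with the gamma segments, which makes 7. B230359F08Rik and C920008G01Rik have the biotype but no such prefix and were kept outside the loci. They lie among the Trav segments on chromosome 14 and held 38 and 2 reads in all 6 libraries together.

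RNA was sequenced from T cells isolated from the spleens of C57BL/6 mice with a pan T-cell kit, kept in interleukin-2 and activated on beads coated with anti-CD3 and anti-CD28. They were then cultured together with ID8, an ovarian cancer line of the mouse. In the cisplatin group (3 libraries) ID8 had first received cisplatin, at 40 µM by the labels, and in the control group (3 libraries, headed WT in the table) phosphate-buffered saline (PBS). No genetic change is given for either group, both groups received the same bead stimulus to the receptor complex, and nothing says that the libraries of a group came from separate mice or cultures. The p-values below therefore measure the spread between these libraries, which may be technical.

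A T cell makes its receptor by joining a V segment to a J segment, with a D segment in between at the beta and delta loci, and by splicing the joined exon to a constant gene. Alpha-beta T cells carry an alpha and a beta chain, and gamma-delta T cells a gamma and a delta chain. The delta segments lie inside the alpha locus on chromosome 14, so some V segments there can join in either chain. In the mouse the alpha V cluster holds duplicated stretches whose segments differ at few positions, and the letters d and n in their names mark these copies.

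The coding ends of the V segments show where the germline part of a receptor stops. The last 45 coding bases of the 3 highest beta segments and of the delta and gamma segments with the most reads are given below, read 5′ to 3′ on the coding strand from GENCODE release M21 (build GRCm38). Capitals mark the last TGT codon in frame with the start codon, the conserved cysteine that opens the third hypervariable loop. The bases after it are those that recombination can trim.
Trbv13-2: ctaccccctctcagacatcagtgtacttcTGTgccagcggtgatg
Trbv16: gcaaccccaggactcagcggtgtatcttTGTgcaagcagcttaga
Trbv12-2: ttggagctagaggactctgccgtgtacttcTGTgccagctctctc
Trdv4: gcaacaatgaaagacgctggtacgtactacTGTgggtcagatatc
Trdv1: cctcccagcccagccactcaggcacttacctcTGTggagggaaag
Trgv2: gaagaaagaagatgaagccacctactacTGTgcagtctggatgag
Tcrg-V1: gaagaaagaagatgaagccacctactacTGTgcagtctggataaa
Tcrg-V4: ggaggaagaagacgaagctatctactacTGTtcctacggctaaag
Tcrg-V6: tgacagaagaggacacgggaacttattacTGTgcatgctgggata
The stretches lie at chr6:41121788-41121832, chr6:41152186-41152230 and chr6:41119320-41119364 (plus strand) for the beta segments, and at chr14:54075471-54075515 and chr14:53882173-53882217 (plus strand) for Trdv4 and Trdv1. Those of the gamma segments lie at chr13:19336573-19336617 (minus strand, Trgv2), chr13:19340410-19340454 (Tcrg-V1), chr13:19185462-19185506 (Tcrg-V4) and chr13:19190885-19190929 (Tcrg-V6), the last 3 on the plus strand.

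The alpha copies differ in how far reads can tell them apart, and the members below were chosen to show both ends of that range. Capitals mark positions that are not the same in all segments of a set. The first set gives coding positions 101 to 190, counted from the start codon, of Trav13-4-dv7 and Trav13d-4, which do not differ here, and of Trav13n-4, which differs from them at 13 of the 90 positions.
Trav13-4-dv7 and Trav13d-4: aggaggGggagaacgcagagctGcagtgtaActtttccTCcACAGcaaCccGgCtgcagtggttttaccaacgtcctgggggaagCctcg
Trav13n-4: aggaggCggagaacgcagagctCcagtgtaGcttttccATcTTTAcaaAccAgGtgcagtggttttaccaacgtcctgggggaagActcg
The second set gives positions 121 to 180 of Trav5-4 and of Trav5d-4 and Trav5n-4, which are the same over all 343 coding bases and differ from Trav5-4 at 6 of them.
Trav5-4: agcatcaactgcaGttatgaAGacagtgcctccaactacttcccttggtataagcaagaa
Trav5d-4 and Trav5n-4: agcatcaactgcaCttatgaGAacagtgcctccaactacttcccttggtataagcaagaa
These stretches lie on the plus strand of chromosome 14, at chr14:53757691-53757780, chr14:53073044-53073133 and chr14:53363876-53363965 for Trav13-4-dv7, Trav13d-4 and Trav13n-4, and at chr14:53704292-53704351, chr14:53002010-53002069 and chr14:53313200-53313259 for Trav5-4, Trav5d-4 and Trav5n-4.

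The deposited values are FPKM (reads scaled by gene length and by library size). Whole reads were rebuilt from them, and 30606569 to 32169496 reads lay on genes in a library. V segments took 9037, 9732 and 9521 reads in the cisplatin libraries and 4981, 5362 and 5516 in the controls, with a median of 78 reads per segment over all libraries together and of 1512 per beta segment.  The 26 T-cell identity genes were all detected, with a summed level of 2059 to 2106 FPKM in cisplatin and 1383 to 1412 FPKM in control libraries. Markers of ID8 cells summed to 243 to 251 FPKM in cisplatin and 1664 to 1742 FPKM in control libraries, and 16 of the 17 tested were lower at adjusted p under 0.05. B-cell markers summed to 3624 to 3699 FPKM against 1696 to 1784 (10 of 11 higher, median log2 fold change 0.44), of which Ighm alone made 3220 ± 46.7 against 1433 ± 38.0 FPKM and the other 10 genes 425 to 458 against 298 to 315. Myeloid markers summed to 125 to 143 FPKM against 59.2 to 63.8 (9 of 10 tested higher). Of these, Adgre1, C1qa and Fcgr1 had control means under 0.5 FPKM and entered the test through their cisplatin libraries. Of 4 tested markers of natural killer cells 1 was higher. The part of these shifts in the differences below was not tested, and in such bulk libraries fewer cells of a type and less RNA per cell cannot be told apart.

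The summed V-segment level was higher in the cisplatin libraries at every locus. Summed alpha V segments reached 171, 190 and 186 FPKM in cisplatin and 96.7, 103 and 95.8 FPKM in control libraries, a ratio of means of 1.85. Summed beta V segments reached 515, 526 and 537 FPKM against 316, 344 and 350 FPKM, a ratio of 1.56. The lowest cisplatin library was above the highest control library at both loci. Delta V segments summed to 10.8, 8.19 and 9.14 FPKM against 3.63, 3.23 and 3.56 FPKM, a ratio of 2.70. Gamma V segments summed to 18.7, 20.3 and 18.6 FPKM against 7.81, 7.5 and 8.83 FPKM, a ratio of 2.38. The groups did not overlap here either, and the sums are descriptions with no test.

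**Figure D1:**
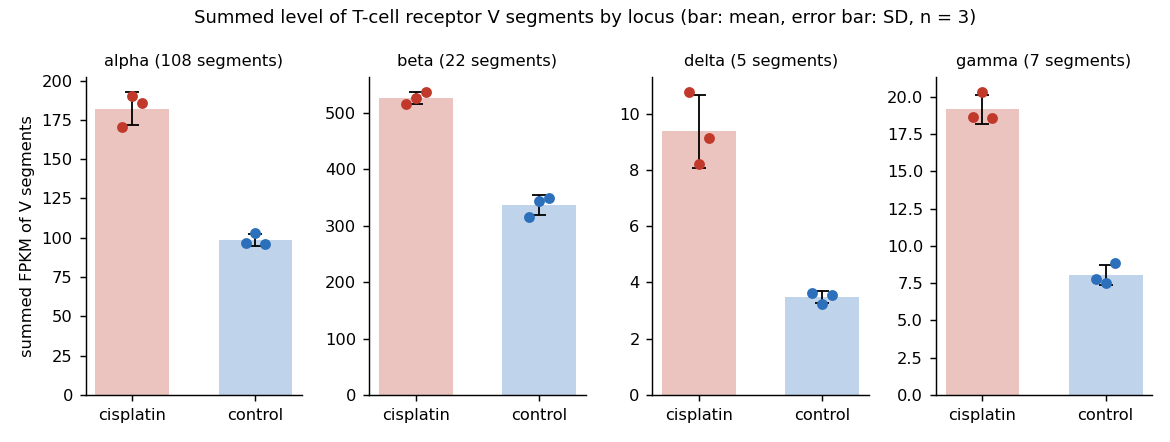
Summed FPKM of the V segments of each locus (y axis, a separate scale per panel, starting at 0) in the cisplatin and control libraries; points are libraries, bars the mean and error bars the SD (n = 3). Cisplatin libraries lie above control libraries in every panel, from 1.56 times on average at the beta locus to 2.70 times at the delta locus.

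Of the 144 segments, 90 averaged 0.5 FPKM or more in the 6 libraries and were tested with limma, with Benjamini-Hochberg adjustment over the 15874 genes tested. Another 31 had some reads but fell under this filter, with at most 13 reads in any library, and 23 had no read in any library. Of the 90, 11 had a control mean under 0.5 FPKM and entered through their cisplatin libraries, and 3 of those 11 were among the higher calls. At adjusted p under 0.05, 53 of the 90 were higher in cisplatin and 0 were lower, where 27.5% of all tested genes were higher and 29% lower. With a difference of at least 2-fold as well, 23 were higher and 0 lower, beside 4.11% and 12.8% of all genes. All 3 cisplatin libraries were above all 3 controls for 59 members, below them for 0, and the shares among all genes were 31.9% and 32.3%. At an unadjusted p under 0.05, 0 members were lower and 60 higher in limma. With voom on the rebuilt reads, 48 of the 77 members that passed its filter were higher at adjusted p under 0.05, 27 of them at least 2-fold, and 0 were lower (54 and 0 at an unadjusted p under 0.05). The share of all genes called with voom is not given here. The median log2 fold change was 0.85 over the 90 members and 0.03 over all tested genes.

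The calls were spread over the loci. At the alpha locus 30 of 63 tested segments were higher, 17 of them at least 2-fold, with a median log2 fold change of 0.94. At the beta locus 16 of 20 were higher, 0 of them by 2-fold, with a median of 0.61. All 3 tested delta segments were higher by at least 2-fold (median 1.46), as were 3 of the 4 tested gamma segments, and the fourth, Tcrg-V1, also passed the test (median of the 4, 1.29).

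**Figure D2:**
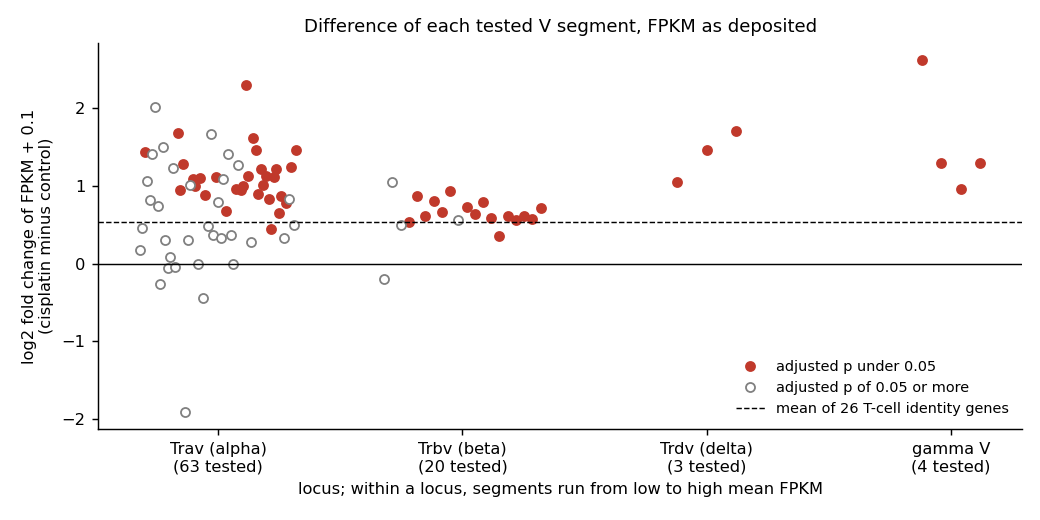
Log2 fold change of FPKM + 0.1 (y axis, cisplatin minus control) of each tested V segment by locus (x axis); filled points have an adjusted p under 0.05 in limma and open points do not, and the dashed line is the mean of the 26 T-cell identity genes (0.54). Beta segments run from -0.20 to 1.05 around the dashed line, all tested delta and gamma segments lie above it, and alpha segments range from -1.90 to 2.29.

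Among alpha segments, the highest mean level was that of Trav14n-3, an n copy, with 102, 127 and 120 reads in cisplatin and 30, 29 and 65 reads in control libraries. The groups did not overlap, and control 3 stood above the other controls. Its level was 9.87 ± 1.0 (SD, n = 3) against 3.77 ± 1.82 FPKM, or 1.45 higher on the log2 scale (standard error 0.29; limma adjusted p = 0.0052). Trav7-4 had 95, 139 and 68 reads against 38, 34 and 40 and rose by 1.23 on the log2 scale (limma adjusted p = 0.0039). Of the 100-base stretches of Trav14n-3 and Trav7-4, 22.9% and 43.2% also occur in their copies. Trav16 had 69, 81 and 81 reads against 32, 62 and 35. It rose by 0.77 (limma adjusted p = 0.033), a call that was lost in 5 of the 6 fits that left out 1 library, all but the one without control 2. Trav3-3 and Trav13-1, the other two of the 5 highest, overlapped between the groups, with 59, 125 and 94 reads against 67, 50 and 58 for Trav3-3 and 49, 69 and 76 against 19, 33 and 55 for Trav13-1. Their log2 fold changes were 0.49 (limma adjusted p = 0.15) and 0.83 (limma adjusted p = 0.094). Trav3-3 passed the test without cisplatin 1 (0.77) and Trav13-1 without control 3 (1.19).

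The largest alpha difference was that of Trav13n-4 (ENSMUSG00000076823, chr14:53362267-53364106), whose reads numbered 50, 75 and 70 in cisplatin and 12, 14 and 8 in control libraries. Every cisplatin library was above every control. The level was 4.60 ± 0.899 against 0.870 ± 0.243 FPKM, or 2.29 higher on the log2 scale (standard error 0.24, limma adjusted p = 2.2e-04). Its transcript shares no stretch of 100 bases with another V segment. Trav13-4-dv7, whose name marks it as usable in alpha and delta chains, had 53, 67 and 51 reads against 16, 13 and 21. It rose by 1.61 (standard error 0.18, limma adjusted p = 3.2e-04). Of its 100-base windows 29.7% also occur in Trav13d-1 or Trav13d-4. Summed with Trav13d-1, Trav13d-4 and Trav13n-1, joined to it through shared windows, the reads were 72, 92 and 94 against 22, 31 and 24. Trav13d-4, which shares 26.3% of its 100-base windows with Trav13-4-dv7, had 9, 10 and 6 reads against 2, 3 and 0 and was not tested. Trav6-3 had 10, 22 and 33 reads against 4, 4 and 7 and rose by 1.67 (limma adjusted p = 0.016), a call lost without cisplatin 2 or cisplatin 3. It shares 85.0% of its windows with Trav6d-3. Summed over both copies, the reads were 17, 30 and 33 against 4, 10 and 9, which did not overlap.

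Segments with a dual alpha and delta name, which can join in either chain, numbered 10, of which 8 were tested. Of these, 4 were higher and 0 lower, with a median log2 fold change of 1.09, beside 26 of 55 and 0.88 for the other tested alpha segments. Trav7-1, in the stretch farthest from the constant gene, was one of the few members with a negative value. It had 11, 10 and 18 reads in cisplatin and 21, 17 and 12 in control libraries, which overlap, and a log2 fold change of -0.45 (limma adjusted p = 0.24). The remaining alpha segments of known use are those of T-cell subsets with a fixed receptor. Trav11, used by invariant natural killer T cells, had 3 reads in control 3 and 0 in the other libraries, and its copy Trav11d had 0 in all 6. The pair is the same over the 342 coding bases compared, so a read inside them could not be placed on either copy. Trav1, used by mucosal-associated invariant T cells, shares no window with another segment and had 23, 14 and 22 reads against 19, 4 and 7. The groups overlapped, and the log2 fold change was 1.01 (limma adjusted p = 0.14), which rested on control 1: without it the value was 1.56 and passed the test.

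Reads on the alpha segments varied with how much sequence a segment shares with others. Of the 108, 19 share no 100-base window with another V segment, 54 share some and 35 share all. All 50 members of any locus that share no window had reads. The 23 members at 0 in every library were all alpha segments, 22 of them with d or n in the name, and each shares at least 68.9% of its windows, 19 of them all. How reads that match several genes were counted is not given in the sources used here, and a value of 0 for such a copy does not show that it was not transcribed. Trav5d-4 and Trav5n-4, the identical pair shown above, had 0 reads in all libraries and 2, 2 and 4 against 2, 0 and 0 reads. Trav5-4, told apart from them at 6 positions, had 78, 53 and 42 reads in cisplatin and 16, 24 and 33 in control libraries. The lowest cisplatin library was above the highest control, and the log2 fold change was 1.11 (limma adjusted p = 0.019).

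**Figure D3:**
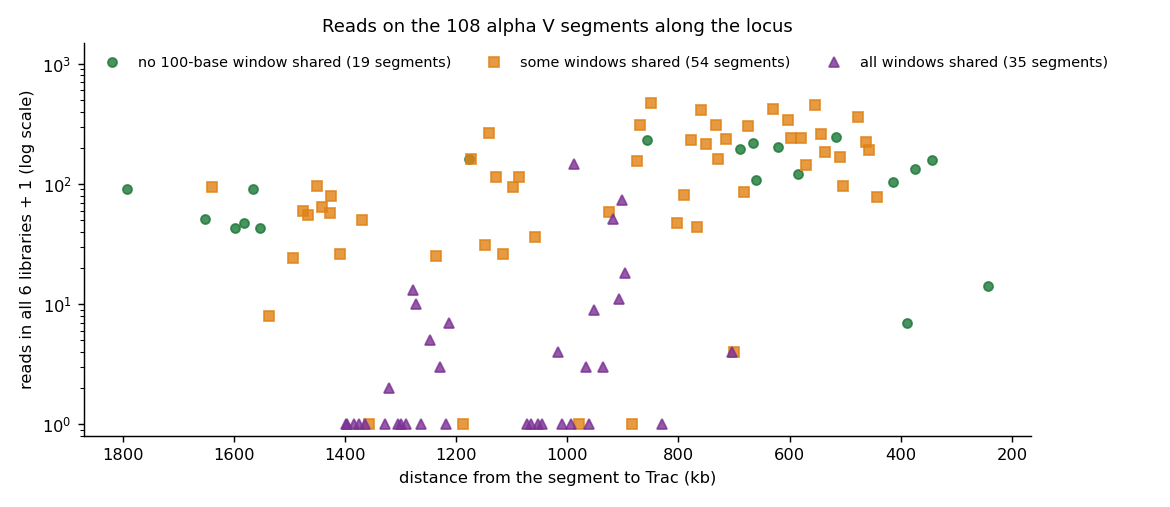
Reads on each of the 108 alpha V segments in all 6 libraries together, plus 1 (y axis, log scale), against the distance from the segment to Trac in kb (x axis, farthest on the left); colours and shapes give the share of 100-base windows that also occur in another V segment. Segments sharing all windows (35) make up 19 of the 23 at 0.

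Some segments that share all their windows had uneven reads between the libraries of a group. The 3 given here were picked after their values were seen. Trav6n-7 had 63 reads in control 1 and 0, 0, 5, 0 and 4 in cisplatin 1 to 3, control 2 and control 3. Trav4n-4 had 49 reads in cisplatin 3 and at most 1 in any other library. Trav9n-3 had 0, 54 and 44 reads against 16, 26 and 6. None of these was called. In all, the 35 alpha segments with all windows shared had 17, 62 and 106 reads in cisplatin and 93, 55 and 14 in control libraries, which overlap. The 19 without a shared window had 566, 478 and 484 against 222, 262 and 231, with no overlap. Joining segments of any locus through any shared window gave 32 copy groups. Of these, 17 had more reads in every cisplatin library than in any control, 0 had fewer and 15 overlapped, 5 of the latter with no read at all. Among all tested genes, 31.9% were higher and 32.3% lower without overlap, in FPKM. The 17 include Trav7-2 with Trav7d-2, at 2, 4 and 1 reads against 0, 0 and 0, and the gamma pair Tcrg-V1 and Tcrg-V3.

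The share of alpha reads that came from each stretch of the locus overlapped between the groups. The d and n stretches were taken to run from the first to the last segment with that letter. The stretch beyond them, nearest the constant gene, held 68.8, 64.5 and 65.7% of alpha reads in cisplatin and 67.2, 66.5 and 67.1% in control libraries. The n stretch held 16.0, 19.2 and 20.7% against 18.2, 16.2 and 16.1%, and the d stretch 10.7, 12.3 and 10.1% against 9.30, 13.7 and 10.9%. The 7 segments at the far end held 4.58, 3.95 and 3.50% against 5.26, 3.51 and 5.92%. The effective number of alpha segments, the exponential of the Shannon entropy of their shares, was 50.6 ± 0.845 in cisplatin and 50.2 ± 3.49 in control libraries, which overlap.

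All 22 beta segments had reads, and none shares a 100-base window with another, so their counts are the least ambiguous. The 5 highest rose by similar amounts. Trbv13-2, much used by invariant natural killer T cells and also common among conventional T cells, had 777, 722 and 890 reads in cisplatin and 433, 472 and 435 in control libraries. The groups were well apart, at 71.8 ± 8.41 against 43.5 ± 2.48 FPKM, and the log2 fold change was 0.72 (standard error 0.09, limma adjusted p = 4.9e-04). Trbv16 had 680, 623 and 557 reads against 387, 354 and 420 and rose by 0.57 (limma adjusted p = 0.0013). Trbv12-2 had 503, 529 and 625 against 315, 319 and 373 and rose by 0.60 (limma adjusted p = 0.0018). No library of the cisplatin group was below a control for either. Trbv15 had 364, 411 and 407 reads against 198, 277 and 271 (log2 fold change 0.57, limma adjusted p = 0.0086), and Trbv3 had 430, 554 and 424 against 294, 245 and 313 (0.61, limma adjusted p = 0.0048). Trbv19, found in receptors of mucosal-associated invariant T cells, had 356, 428 and 358 reads against 187, 196 and 223 and rose by 0.80 (limma adjusted p = 2.4e-04).

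Beta usage, the share of each segment among the beta reads of a library, had nearly the same order in both groups. Trbv13-2 held 11.9 ± 1.30% of beta reads in cisplatin and 11.3 ± 0.818% in control libraries, Trbv16 held 9.30 ± 1.14% and 9.78 ± 0.833%, and Trbv12-2 held 8.26 ± 0.860% and 8.46 ± 0.452%. All of these overlapped between the groups. The 17 highest segments together held 98.8 ± 0.133% and 98.8 ± 0.319%. Mean shares in the groups correlated at Pearson r = 0.99 (Spearman rho = 0.98) over the 22 beta segments and at r = 0.92 (rho = 0.93) over the 108 alpha segments, whose points share libraries and counting rules. The 108 include the 23 with no read in any library, tied at 0 in both groups, and the correlation without them was not computed. The effective number of beta segments was 16.7 ± 0.273 against 16.6 ± 0.271, which overlap.

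**Figure D4:**
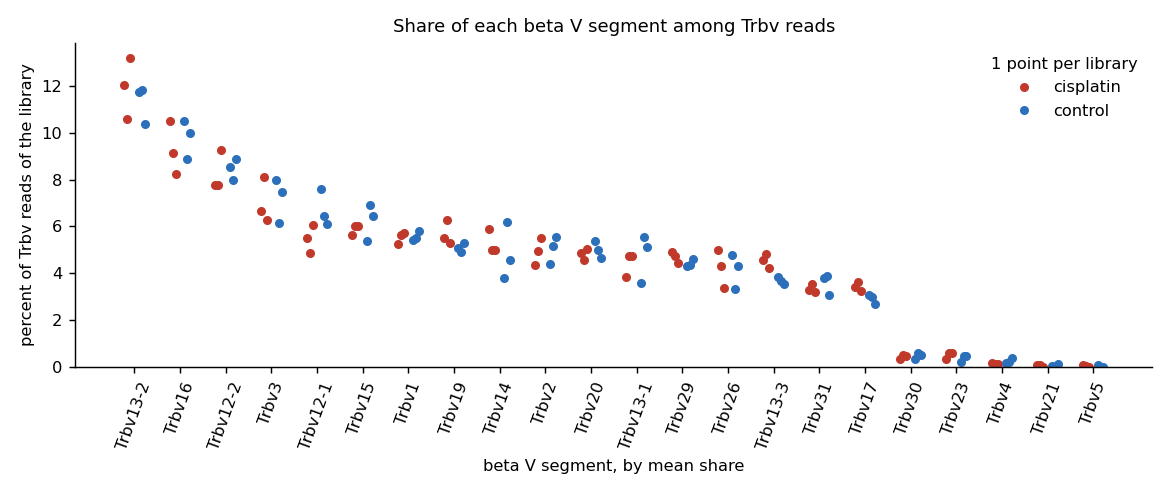
Percent of the beta V reads of a library (y axis) held by each of the 22 beta segments (x axis, by mean share); each point is a library of the cisplatin or control group. The groups lie at nearly the same height for most segments, from 11.9% and 11.3% on average for Trbv13-2 down to under 1% for the last 5.

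A few shares were apart between the groups. Over the 119 segments of the loci with a read, 5.88% had a higher share in every cisplatin library than in any control and 7.56% a lower one. The beta segments among them, named after their values were seen, were Trbv13-3 and Trbv17 (higher) and Trbv12-1 and Trbv4 (lower). Trbv13-3 held 4.54 ± 0.294% against 3.69 ± 0.150%, and Trbv17 held 3.42 ± 0.190% against 2.92 ± 0.205%. Trbv12-1 held 5.48 ± 0.610% against 6.72 ± 0.767%. Trbv4, with 12, 8 and 9 reads against 7, 9 and 17, held 0.145 ± 0.0357% against 0.273 ± 0.115%. At the alpha locus Trav13n-4 held 2.75 ± 0.382% against 0.964 ± 0.236% and Trav13-4-dv7 2.42 ± 0.263% against 1.43 ± 0.385%, both apart and higher. Trav13d-4 and Trav7d-2, with 30 and 7 reads in all, were also higher. Of the 6 alpha segments with a lower share, also named after their values were seen, Trav12-2 held 2.76 ± 0.466% against 4.06 ± 0.660% and Trav9-4 2.21 ± 0.119% against 2.99 ± 0.201%. Trav7-1 held 0.555 ± 0.184% against 1.43 ± 0.400%. The others were Trav9d-1, Trav8d-1 and Trav7n-6, with 17 to 63 reads in all. These shares have no test of their own. With 3 libraries per group, some segments are expected to be apart without any difference between the groups.

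The delta segments had few reads. Trdv4, which pairs with Tcrg-V6 and Tcrg-V5 in gamma-delta T cells that arise before birth, had 47, 48 and 61 reads in cisplatin and 17, 9 and 17 in control libraries. Every cisplatin library was above every control, at 3.59 ± 0.561 against 1.07 ± 0.338 FPKM. The log2 fold change was 1.70 (standard error 0.25, limma adjusted p = 0.0012). Trdv1 had 55, 31 and 26 reads against 16, 9 and 10, with cisplatin 1 well above the others, and rose by 1.46 (limma adjusted p = 0.0083). Trdv5 overlaps the end of the delta constant gene Trdc on the opposite strand, and since no strand setting is given for the counting, their reads cannot be told apart there. It had 28, 21 and 29 reads against 9, 13 and 11 and rose by 1.04 (limma adjusted p = 0.0046), a call that voom on the reads did not make (adjusted p = 0.054). Trdv2-2 with 6, 7 and 5 reads against 1, 8 and 3, and Trdv2-1 with 0, 2 and 1 against 0, 0 and 3, were under the filter.

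The gamma segments were led by Trgv2 and Tcrg-V1, neighbours on chromosome 13 at chr13:19336573-19337167 and chr13:19339989-19340454. Trgv2 had 104, 148 and 127 reads in cisplatin and 42, 38 and 63 in control libraries, with no overlap. Its level was 7.87 ± 1.28 against 3.20 ± 0.857 FPKM, or 1.29 higher on the log2 scale (standard error 0.20, limma adjusted p = 0.0016). Tcrg-V1, frequent among gamma-delta T cells of the spleen, had 79, 86 and 67 reads against 36, 36 and 36 and rose by 0.96 (limma adjusted p = 1.6e-04). Tcrg-V4, also carried by gamma-delta T cells of lymphoid organs, had 53, 26 and 42 reads against 20, 12 and 11 and rose by 1.30 (limma adjusted p = 0.013). For both, the lowest cisplatin library was above the highest control.

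Tcrg-V6, known from gamma-delta T cells that make interleukin-17, had 19, 22 and 24 reads in cisplatin and 0, 5 and 4 in control libraries. The groups did not overlap, and the level was 1.57 ± 0.181 against 0.234 ± 0.207 FPKM. With a control mean under the filter of 0.5 FPKM, it entered the test through its cisplatin libraries. The log2 fold change of 2.61 (standard error 0.62, limma adjusted p = 0.011) was the largest of the tested members and depends on the pseudocount, since a control library was at 0. With a pseudocount of 0.01 it was 3.85 and missed the threshold. Its share of gamma reads was 8.0% in cisplatin and 2.88% in control libraries on average, without overlap, and that of Tcrg-V1 was 28.5% and 34.8%, also apart. Tcrg-V3 had 4, 6 and 1 reads against 2, 4 and 2. Tcrg-V5, the segment of skin gamma-delta T cells, had 0, 4 and 2 reads against 0, 0 and 0, and Tcrg-V7 had 0, 0 and 0 against 0, 0 and 2. These 3 were under the filter, and at this depth no difference was detectable for them.

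**Figure D5:**
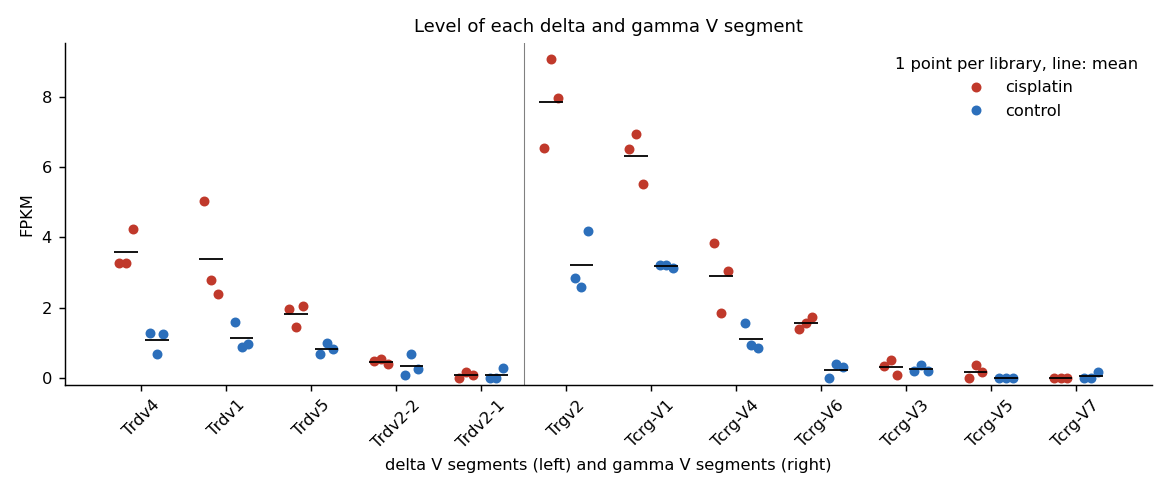
FPKM (y axis) of the 5 delta and 7 gamma V segments (x axis); points are libraries and black lines group means. The 3 cisplatin points lie above the 3 control points for Trdv4, Trdv1, Trdv5, Trgv2, Tcrg-V1, Tcrg-V4 and Tcrg-V6, and the other segments stay under 1 FPKM.

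The mix of loci among V reads differed between the groups. Beta segments held 71.6, 70.1 and 70.9% of V reads in cisplatin and 74.1, 74.5 and 76.2% in control libraries, with no overlap. Gamma reads per 100 beta reads numbered 4.0, 4.28 and 3.89 against 2.71, 2.38 and 2.81, and delta reads per 100 alpha reads 6.29, 4.35 and 5.14 against 3.77, 3.18 and 3.83. Both sets were apart between the groups. Alpha reads per 100 beta reads numbered 33.4, 36.7 and 35.1 against 30.9, 30.6 and 27.3, again apart. With the 19 alpha segments that share no window alone they were 8.75, 7.01 and 7.17 against 6.01, 6.55 and 5.50, apart as well. With the 14 that have no d or n copy they were 3.46, 2.93 and 2.90 against 3.17, 3.48 and 2.57, which overlap. These ratios do not depend on the RNA of cells without receptor transcripts, and they were not tested.

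Since markers of ID8 cells and of other cell types also differed between the groups, the segments were also compared after centring each library on the 26 T-cell identity genes, which hold no V, J or constant gene but include the 4 CD3 chains. Their mean log2 fold change was 0.54, and 24 of the 26 were higher and 1 lower. On this scale the median of all tested genes moved to -0.51 and that of the 90 members to 0.31. At adjusted p under 0.05, 16 members were higher and 1, Trav7-1, was lower, beside 5.32% and 63.6% of all genes. By at least 2-fold, 5 were higher and 0 lower, beside 0.97% and 22.1%. These 5 were Tcrg-V6 (log2 fold change 2.07), Trav13n-4 (1.76, limma adjusted p = 5.0e-04), Trdv4 (1.16, limma adjusted p = 0.0047), Trav6-3 (1.14) and Trav13-4-dv7 (1.08, limma adjusted p = 0.0014). Tcrg-V6 and Trav6-3 had control means under 0.5 FPKM (0.234 and 0.411) and entered the test through their cisplatin libraries. Trav6-3 was just inside the threshold, at a limma adjusted p of 0.0498, and kept the call only in the fit without cisplatin 1. Tcrg-V6 lost its call on this scale without cisplatin 2 or cisplatin 3.

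Calls relative to the T-cell identity genes were also counted by locus. At the beta locus 4 of 20 tested segments were higher, namely Trbv13-3, Trbv17, Trbv19 and Trbv29, by 0.19 to 0.40 on the log2 scale, and these were named after their values were seen apart from Trbv19. The 5 highest beta segments were not called, with log2 fold changes of 0.18 for Trbv13-2, 0.03 for Trbv16, 0.07 for Trbv12-2, 0.03 for Trbv15 and 0.07 for Trbv3. At the alpha locus 7 of 63 were higher. Of the gamma segments, Trgv2 (0.75, limma adjusted p = 0.011), Tcrg-V1 (0.43, limma adjusted p = 0.0083) and Tcrg-V6 were higher, and Tcrg-V4 had a value of 0.76 (limma adjusted p = 0.079). Tcrg-V4 passed without cisplatin 2 or control 1. Of the delta segments Trdv4 and Trdv1 were higher and Trdv5 was not called (0.51, limma adjusted p = 0.060). Trdv1 kept its call only without cisplatin 3 or control 1, and Trdv5 passed without cisplatin 2 or control 2. At the beta locus Trbv19 lost its call without cisplatin 2, control 1 or control 2, and Trbv13-2 passed without cisplatin 2. Trav7-1, at -0.98 (limma adjusted p = 0.020), lost its call in 4 of the 6 fits without 1 library, those without cisplatin 1, cisplatin 2, control 1 or control 2.

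The constant genes, which are spliced to every joined V exon, moved with the V segments. Of 8 constant genes 7 were tested and all 7 were higher on both scales. Trac, the alpha constant gene, was at 249 ± 5.74 FPKM in cisplatin and 138 ± 5.84 FPKM in control libraries (log2 fold change 0.85, limma adjusted p = 5.0e-06). Trbc1 and Trbc2 had log2 fold changes of 0.73 and 0.76, Trdc one of 1.37, and Tcrg-C1, Tcrg-C2 and Tcrg-C4 had 1.75, 1.45 and 1.20. V reads per 100 constant-gene reads were 28.1, 32.6 and 32.2 against 30.9, 30.9 and 28.2 at the alpha locus and 14.6, 12.4 and 16.0 against 14.1, 14.6 and 13.3 at the delta locus, and both overlapped. At the gamma locus they were 22.4, 28.1 and 26 against 32.1, 27.5 and 27.6, which overlap. At the beta locus they were 35.3, 34.9 and 37.3 against 39.9, 37.9 and 37.7, a ratio of means of 0.930 with no overlap. Centred on Trac, Trbc1 and Trbc2, 7 V segments were higher and 6 lower, the median of the members was 0.07, and the log2 fold changes of the 5 highest beta segments were negative. By at least 2-fold, 2 members were higher and 1 lower on that scale, beside 88 and 5089 of all 15874 tested genes. The median of all tested genes was -0.75.

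Other genes of receptor assembly were described from lists. The 4 CD3 chains, which carry the signal of every T-cell receptor, were all higher (median log2 fold change 0.45), and relative to the identity genes, which include them, Cd247 was higher and Cd3e and Cd3g were lower. Cd4, Cd8a and Cd8b1, the coreceptors of alpha-beta T cells, were all higher by 0.39 to 0.43. Relative to the identity genes all 3 were lower, as were 63.6% of all tested genes. The 3 log2 fold changes were -0.13, -0.10 and -0.14 (limma adjusted p = 0.025, 0.035 and 0.0079). Of the 8 recombination genes 5 were tested, of which 2 were higher and 1 lower. The recombinase genes Rag1 and Rag2, and Ptcra, which encodes the partner of a newly made beta chain, were under the filter with means of at most 0.154 FPKM. Dntt, which adds bases at the joins, was lower (0.373 ± 0.225 against 1.62 ± 0.118 FPKM, limma adjusted p = 0.0048), and Prkdc, a kinase of the joining step, was higher (0.70). With a cisplatin mean under 0.5 FPKM, Dntt entered the test through its control libraries. Relative to the identity genes 0 of the 5 were higher and 3 lower (Dntt, Lig4 and Xrcc4), where 63.6% of all tested genes were lower. In FPKM as deposited, Lig4 and Xrcc4 were not called (limma adjusted p = 0.31 and 0.999). Prkdc was at 0.17 relative to the identity genes (limma adjusted p = 0.062). Of 7 tested genes of gamma-delta T cells, 5 were higher and 2 lower. Outside the receptor, Cd163l1, a scavenger receptor of gamma-delta T cells, rose by 2.02, Il23r, the receptor of interleukin-23, by 1.80 and Blk, a Src-family kinase that B cells also make, by 0.86. Il23r, with a control mean of 0.208 FPKM, entered the test through its cisplatin libraries. Maf, a transcription factor, fell by 1.08. Of 3 tested genes of invariant T cells 2 were higher. Zbtb16, their transcription factor, rose by 1.47 (limma adjusted p = 0.037) and Slamf6 by 0.80. With a control mean of 0.273 FPKM, Zbtb16 also entered the test through its cisplatin libraries. Relative to the identity genes Slamf6 was higher (0.27, limma adjusted p = 0.0039) and Zbtb16 was not called (0.94, limma adjusted p = 0.12).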

How the data were processed

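The authors deposited an FPKM table, reads scaled by gene length and library size. The paper's methods name LifeScope, the submitters' processing notes fastp, HISAT2 2.0.5, featureCounts 1.5.0-p3 and mm10. Strand and multiple-match settings are not given in the sources used here. The authors tested raw counts with DESeq2. The table held 0 further columns of samples.

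Whole reads were rebuilt as FPKM times gene length over each library's step, and 100% of values lay within 0.1 of a whole read. They cover counting error only. In every library more genes stood at 2 than at 1 read (2032 against 1292 in cisplatin 1) and at 4 than at 3 (1220 against 779). Whether both ends of a fragment were counted is not given and was not tested, so the independent fragments may be fewer than the reads. All 144 segments have the coordinates and exonic length of GENCODE release M21 (GRCm38), whose transcripts gave the sequences. Differential expression was tested with limma 3.58.1 (R 4.3.3), with a variance trend, on log2(FPKM + 0.1) of genes averaging 0.5 FPKM or more, so fold changes of low genes are understated. A second fit centred each library on the T-cell identity genes. P-values were adjusted by Benjamini-Hochberg over all 15874 genes. The fit was tested on simulated data. The steps ran in python 3.11.15 with numpy 2.4.6, pandas 2.3.3, scipy 1.17.1 and matplotlib 3.10.9.

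Named were the 5 highest alpha and beta segments, all delta and gamma segments, the 5 largest changes in each direction on either scale (adjusted p under 0.05, mean of at least 10 reads in the higher group), segments of T cells with a fixed receptor, and genes of the lists (T-cell identity, constant genes, CD3, recombination, gamma-delta, invariant T cell, CD4 and CD8, ID8, B cell, myeloid, natural killer). The members and lists were chosen with earlier results of these data known. Not every listed gene is reported here.

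Libraries of a group were not identical (chi-square over its degrees of freedom, 5.11 to 5.99). The factor behind FPKM was 1.03 to 1.05 times the rebuilt reads in cisplatin and 0.976 to 0.982 times in control libraries.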

Additional observations from a re-analysis of the deposited data

How the results depend on the processing

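Directions of the summed levels held under every alternative run. Leaving out segments with a d or n copy (94 alpha segments) gave a fold of 1.55 for summed alpha V segments, an alpha V to constant ratio of 0.875 times the control, 24 higher calls (7 at least 2-fold), and 9 (2) relative to the T-cell identity genes, on fewer segments. Scaling by the rebuilt reads on genes gave a beta fold of 1.65. Leaving out segments that share 100-base windows was added after seeing the data. It gave a gamma fold of 2.72 and 28 higher calls among 43 tested members (10 at least 2-fold). Voom relative to the identity genes was also added then (8 higher, 0 lower). A filter at a mean of at least 5 FPKM left 20 members, of which 19 were higher (2 at least 2-fold). The share of all genes called under this filter is not given here. A pseudocount of 1 gave 9 calls of at least 2-fold and quantile normalization, which moved the median of all genes to 0.16, gave 38. Under quantile normalization 979 of all 15874 tested genes were higher and 1790 lower by at least 2-fold. Centring on the identity genes gave 16 higher (5 at least 2-fold) and 1 lower. Centring on Trac, Trbc1 and Trbc2 moved the median of all genes to -0.75 and made 88 genes higher and 5089 lower by at least 2-fold. Among the members it gave 7 higher (2 at least 2-fold) and 6 lower (1 at least 2-fold). It turned the log2 fold changes of Trav16 (-0.0089), Trbv13-2 (-0.062), Trbv16 (-0.21), Trbv12-2 (-0.18), Trbv15 (-0.21) and Trbv3 (-0.17) negative. Relative to the identity genes, a pseudocount of 1 gave 3 lower and 1 higher by at least 2-fold, and one of 0.01 gave 1 lower by at least 2-fold. Causes of the moves under scalings and pseudocounts were not tested.

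Leaving out 1 library at a time gave 41 to 50 higher and 0 lower calls (18 to 24 and 0 at least 2-fold), and relative to the identity genes 13 to 16 higher and 1 to 2 lower (3 to 7 and 0 to 1 at least 2-fold). The folds ran from 1.81 to 1.91 (alpha), 1.52 to 1.60 (beta), 2.5 to 2.87 (delta) and 2.31 to 2.5 (gamma), and the V to constant ratios from 1.0 to 1.08, 0.911 to 0.947, 0.964 to 1.09 and 0.835 to 0.932. Differences in the effective number of segments ran from -1.02 to 2.31, -0.07 to 0.21, -0.62 to -0.14 and 0.17 to 0.42.

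Libraries with the same replicate number shared only that number: their deviations from the group means correlated at 0.0229, -0.0630 and -0.0207. With the replicate number as a block, 54 members were higher (23 at least 2-fold) and 0 lower, and relative to the identity genes 19 were higher (5 at least 2-fold) and 0 lower. At this depth segments with few reads limit what can be called: 54 members were under the filter.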
